A study of Mus musculus with 6 samples.

Results

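The clustered protocadherin genes are neighbouring cell adhesion genes on mouse chromosome 18, and their promoters were examined in open chromatin of the kidney proximal tubule. The members were all protein-coding genes of GENCODE on that chromosome (GRCm38) whose symbol begins with Pcdha, Pcdhb or Pcdhg, which gave 57 of 21851 protein-coding genes. There were 12 alpha genes and 2 alpha C-type genes (Pcdhac1 and Pcdhac2), 22 beta genes, 12 gamma A genes, 6 gamma B genes and 3 gamma C-type genes (Pcdhgc3, Pcdhgc4 and Pcdhgc5). They lie between positions 36930184 and 37841873, a span of 912 kb. A member's promoter was called open in a library where a peak lay in the region holding a summit within 1 kb of the start of its first exon.

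The libraries were made by ATAC-seq, in which a transposase inserts sequencing adapters into accessible DNA. The S1 segment, the first stretch of the proximal tubule after the glomerulus, was dissected by hand from wild-type male C57BL/6 mice of 7 weeks, with 3 tubules pooled in each library. Mice had either a sham operation (Sham) or unilateral nephrectomy (UNx), the surgical excision of 1 kidney, with 3 libraries for each, and 24 h is given as the time for all 6 libraries. Nothing in the labels ties each library to a mouse of its own, so p-values measure only the spread between these libraries, which may be technical.

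In the alpha and gamma clusters each variable exon has its own promoter and is spliced to constant exons shared by the whole cluster, whereas each beta gene is a single exon. In neurons a cell opens only some of these promoters, which are bound by CTCF and cohesin and contact distant enhancers. The resulting mix of adhesion proteins gives the cell a surface identity used in self-recognition. The C-type genes are used more uniformly among neurons than the alternate isoforms, and DNA methylation with the chromatin protein SMCHD1 keeps many promoters of the cluster silent.

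The deposited lists held 77355 to 100999 peaks and no read counts, so the depth of the libraries is unknown. By the authors' −log10 q, Sham 2 was the weakest list (median 12.1) and UNx 3 the strongest (median 26.5). To compare lists, the 77355 strongest peaks of each were ranked by −log10 q, and every value below is a percentile rank within its list, near 100 for the strongest peak, with 0 standing for absence from the ranked peaks. In all 6 lists, 10 of 10 S1 markers had an open promoter: Slc5a2, the apical glucose transporter of this segment, stood at 89.2 ± 4.79 (SD, n = 3) in Sham and 90.7 ± 3.55 in UNx. The phosphate transporter gene Slc34a1 stood at 91.2 ± 0.712 and 93.8 ± 2.24, and the endocytic receptor gene Lrp2 at 96.2 ± 0.627 and 92.8 ± 1.53.

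Most promoters of the cluster were not among the 77355 ranked peaks of any list. Of the 57 members, 9 (15.8%) were open in all 6 lists, 22 (38.6%) in at least 1 list and 35 in none. With all deposited peaks, 10 were in all 6 lists, 30 (52.6%) in at least 1 and 27 in none. Counts of lists take 1 region per gene, the one with the highest mean percentile. It was chosen anew for all deposited peaks, and a list with a peak only in another region is not counted. Among the other 21794 protein-coding genes, 57.2% were open in all 6 lists and 63.4% in at least 1. The open members were concentrated at the gamma end of the locus. In all 6 lists, 8 of the 21 gamma genes, 1 of the 14 alpha genes (the C-type gene Pcdhac2) and none of the 22 beta genes were open.

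**Figure D1:**
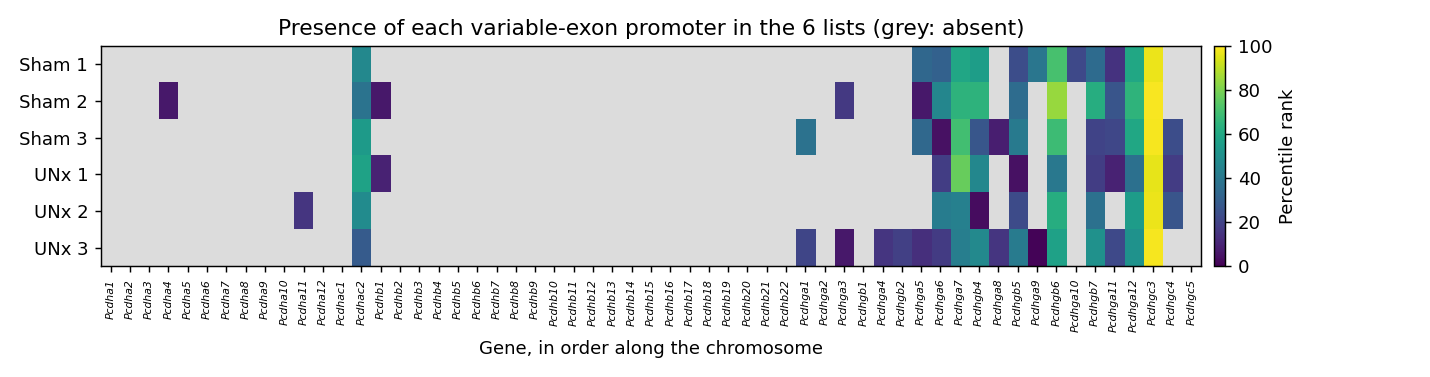
Percentile rank of the promoter region of each of the 57 members (x axis, in chromosome order) in the 3 Sham and 3 UNx lists (y axis). Grey cells are absent from the 77355 strongest peaks; coloured cells gather in the gamma genes, with Pcdhgc3 near the top of the scale in all 6 lists and Pcdhac2 the one alpha gene present in all of them.

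Within the alpha cluster the 12 alternate genes were nearly empty. Pcdha4 was present in Sham 2 only, at 6.45, and Pcdha11 in UNx 2 only, at 15.6. When all deposited peaks were kept, 7 of the 12 appeared in at least 1 list, and the counted region of none was in 3 or more. No list held Pcdhac1. Pcdhac2, a C-type gene known for its part in the spacing of serotonergic axons, was different from its neighbours: its region of 1622 bp (chr18:37143069-37144690, GRCm38, in the UTR of the gene) was the widest among the members open in all 6 lists. Pcdhac2 ranked at 46.7, 38.1 and 54.3 in Sham 1, 2 and 3 and at 57.6, 48.4 and 28.6 in UNx 1, 2 and 3. The highest and the lowest value both came from UNx libraries, and the groups overlapped.

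The beta cluster was the emptiest. Pcdhb1, the first beta gene, was the only one of the 22 with a ranked peak, at 6.45 in Sham 2 and 9.41 in UNx 1. It was in 5 of the 6 lists when all deposited peaks were kept, so in 3 lists it was present but too weak to be ranked. Pcdhb17, Pcdhb18 and Pcdhb19 were then in 1 list each, and the other 18 beta genes in none. In every deposited list 1 peak number is skipped in a stretch that ends before Pcdhga1. That stretch holds the starts of Pcdhb20, Pcdhb21 and Pcdhb22 in all 6 lists, those of Pcdhb2 to Pcdhb22 in Sham 2, Sham 3 and UNx 2, and in UNx 2 also that of Pcdhb1. It was not fully analysed here, so the counts for the beta genes may miss a peak.

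The gamma A and gamma B genes alternate along the chromosome, and the number of open promoters differed along that order. None of the first 7, from Pcdhga1 to Pcdhga5, was open in all 6 lists, and Pcdhga2 and Pcdhgb1 were in no list. Of the next 11, from Pcdhga6 to Pcdhga12, 7 were open in all 6 lists and each of the 11 was in at least 1. The 7 were Pcdhga6, Pcdhga7, Pcdhgb4, Pcdhgb5, Pcdhgb6, Pcdhgb7 and Pcdhga12. By type, 4 of 6 gamma B genes (66.7%) and 3 of 12 gamma A genes (25.0%) were open in all 6 lists. This contrast depended on the cutoff. In at least 1 ranked list the gamma A share was the higher, 91.7% against 83.3% for gamma B. With all deposited peaks, 75.0% of gamma A and 66.7% of gamma B genes were in 3 or more lists. The dividing point along the chromosome was taken from the values, so that order is a description and carries no test.

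**Figure D2:**
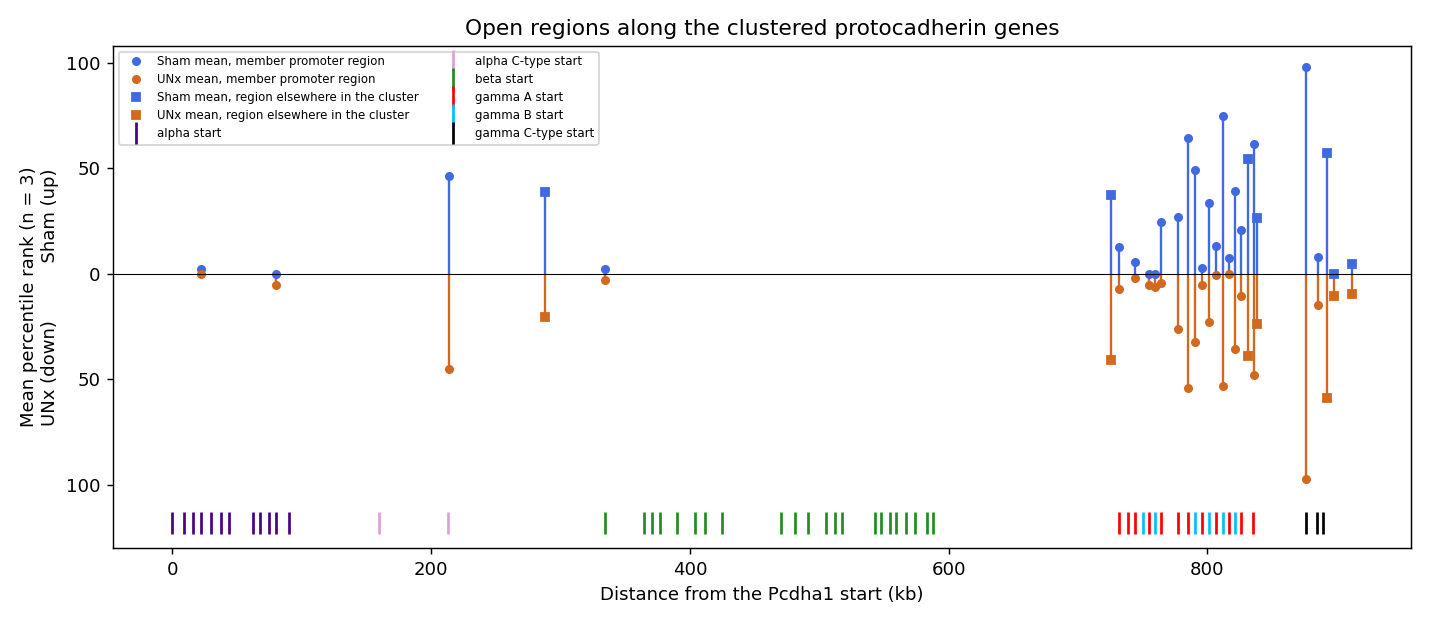
Mean percentile rank (y axis, Sham upward and UNx downward, n = 3 libraries each) of the open regions found in the cluster against their distance from the Pcdha1 start in kb (x axis). Circles are member promoter regions, squares are regions elsewhere in the span, and ticks mark the starts of the members by subcluster; the regions crowd at the gamma end, and Pcdhgc3 is the tallest on both sides.

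The strongest promoter of the cluster was Pcdhgc3, a C-type gene whose protein is known to bind Axin1 and to dampen Wnt signalling. Its region (chr18:37805940-37806933, GRCm38; inside introns of 18 member genes and an exon of BC037039) ranked at 97.1, 98.9 and 98.6 in Sham 1, 2 and 3. In UNx 1, 2 and 3 it ranked at 96.2, 97.2 and 98.8. These places correspond to rank 864 in the list where it stood highest and rank 2974 where it stood lowest, with the authors' fold enrichment between 16.7 and 21.6 and a −log10 q between 106 and 334. The protein-coding genes that flank the whole cluster stood in the same range: Zmat2 at 97.6 ± 1.63 (SD, n = 3) in Sham and 96.6 ± 1.01 in UNx, and Diaph1 at 97.3 ± 1.56 and 96.9 ± 0.260. The member with the next highest mean over the 6 lists, Pcdhgb6, stood at 63.9 against 97.8 for Pcdhgc3.

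The other C-type gamma genes were weak or absent. Pcdhgc4, known for its role in neuronal survival, had a region 355 bp after its start (chr18:37815195-37815727) that was present in Sham 3 at 23.6, UNx 1 at 17.7 and UNx 2 at 26.4. A separate region, at −417 bp from that start, was present in Sham 2 at 11.3, UNx 1 at 24.5 and UNx 3 at 9.02. Neither region was found in all libraries, but among the ranked peaks every list except Sham 1 held at least one of them. With all deposited peaks the 1 region counted for Pcdhgc4 was in 5 lists, Sham 1 included. The list without it was Sham 2, which held the separate region at −417 bp. Every deposited list thus held at least 1 region at this gene. No list held a peak within 1 kb of the Pcdhgc5 start.

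Below Pcdhgc3, the gamma A and gamma B promoters open in 3 or more lists spread over the lower and middle ranks. Pcdhgb6 (chr18:37741874-37742574) was the strongest, at 71.0, 84.5 and 68.6 in Sham 1, 2 and 3 and 39.9, 62.2 and 57.1 in UNx 1, 2 and 3. All 3 UNx values lay below all 3 Sham values. Pcdhga7 (chr18:37714614-37715291) ranked at 59.1, 64.8 and 69.8 in Sham and 76.9, 43.5 and 42.6 in UNx, where UNx 1 was the highest of the 6 libraries. Pcdhga12 (chr18:37765706-37766238), the last gamma A gene, ranked at 59.7, 65.2 and 59.7 in Sham and 36.9, 55.3 and 50.9 in UNx, again with every UNx library below every Sham library.

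A middle group varied more between libraries than between operations. Pcdhgb4 (chr18:37720208-37720803) ranked at 55.7, 64.8 and 26.7 in Sham and 46.4, 3.47 and 47.2 in UNx, with UNx 2 far below the rest. Pcdhgb7 (chr18:37751490-37752018) ranked at 34.9, 62.3 and 20.3 in Sham and 18.3, 37.4 and 50.4 in UNx. The lowest value of Pcdhgb7 was in UNx 1 and the highest in Sham 2, with the others interleaved. Pcdhgb5 (chr18:37730803-37731497) ranked at 23.7, 35.3 and 41.4 in Sham and 4.34, 22.7 and 41.6 in UNx, so that UNx 3 was level with the highest Sham library. Pcdhga6 (chr18:37706958-37707572) ranked at 31.1, 45.8 and 4.39 in Sham and 18.3, 42.1 and 17.3 in UNx, with the lowest value in Sham 3. The Sham and UNx values overlapped at all 4 genes, and also at Pcdhga7.

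Pcdhga11 and Pcdhga5 were at the edge of detection. Pcdhga11 (chr18:37755568-37755983) ranked at 14.6, 26.2 and 21.3 in Sham, at 9.40 and 22.2 in UNx 1 and UNx 3, and was not among the ranked peaks of UNx 2. Pcdhga5 (chr18:37694260-37694843) ranked at 33.3, 6.45 and 33.6 in Sham and at 13.3 in UNx 3, and was absent from UNx 1 and UNx 2. With all deposited peaks Pcdhga5 was in all 6 lists, so its zeros mark a low rank. The counted region of Pcdhga11 was still missing from UNx 2. The groups of both genes overlapped, through UNx 3 in each case.

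The remaining 7 gamma members with a peak were Pcdhga1, Pcdhga3, Pcdhga4, Pcdhgb2, Pcdhga8, Pcdhga9 and Pcdhga10. Among the ranked peaks each was in 1 or 2 lists, at ranks from 1.10 to 39.3, the extremes both belonging to Pcdhga9 (39.3 in Sham 1 and 1.10 in UNx 3). Pcdhga10 also had a separate region in UNx 1, at 9.40. With all deposited peaks, again by 1 counted region per gene, Pcdhga10 was in 5 lists, Pcdhga1 in 4, Pcdhga3 and Pcdhga9 in 3, and the other genes in 2. Among the ranked peaks UNx 3 held 6 of these 7, all but Pcdhga10. Sham 1 held Pcdhga9 and Pcdhga10, Sham 2 held Pcdhga3, and Sham 3 held Pcdhga1 and Pcdhga8. UNx 2 held none of the 7, and UNx 1 only the separate region of Pcdhga10. UNx 3 was also the list with the highest median −log10 q, and its part in these counts was not tested.

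**Figure D3:**
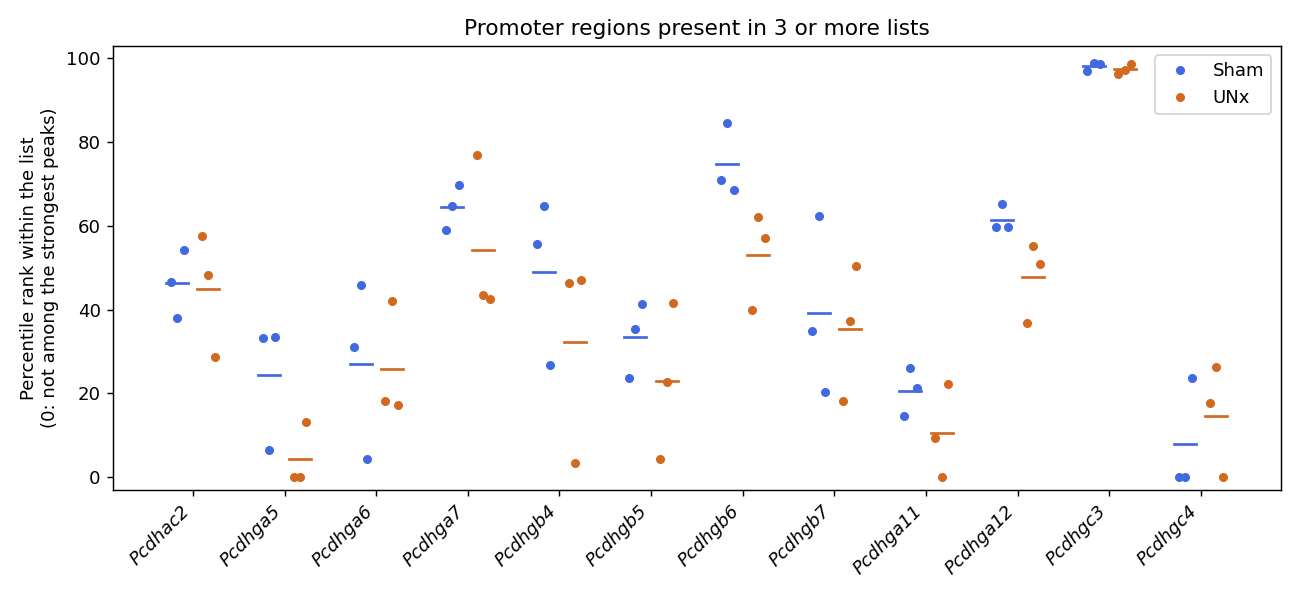
Percentile rank (y axis, 0 for a region not among the strongest peaks) of the 12 member promoter regions present in 3 or more lists, in chromosome order (x axis). Points are single libraries and bars are means of 3; Pcdhgc3 sits at 96.2 or above in all 6 libraries, and at Pcdhgb6 and Pcdhga12 the 3 UNx points lie below the 3 Sham points.

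Whether removing 1 kidney altered these promoters was tested by the difference in percentile rank, UNx minus Sham, in 1 limma fit over the 74774 regions present in at least 3 lists. The number of open members per list overlapped between the operations: 13, 14 and 14 members in Sham 1, 2 and 3 and 12, 11 and 17 in UNx 1, 2 and 3. The gamma A genes numbered 7, 6 and 7 in the Sham lists and 4, 3 and 10 in the UNx lists. By 1 counted region per gene, all deposited peaks gave 18, 13 and 18 members in Sham and 17, 16 and 25 in UNx. The group mean was then higher in UNx (19.3 against 16.3), whereas it was slightly lower among the ranked peaks (13.3 against 13.7). Sham 2 had no peak left out of the ranking, so its fall from 14 to 13 came from the choice of region. These counts can miss a member whose peak lay in another region.

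Of the 57 members, 12 were in enough lists to be tested and the other 45 were not. None of the 12 passed the threshold of 0.05 (limma, Benjamini-Hochberg adjusted over all tested regions), beside 0.808% of all tested regions that did (0.364% lower and 0.444% higher after UNx). A single member, Pcdhgb6, had an unadjusted p under 0.05, as had 13894 of the 74774 tested regions. The difference at Pcdhgb6 was −21.6 ± 7.01 percentile points (SE, limma adjusted p = 0.120, and 0.0813 to 0.528 over the alternatives). At Pcdhga5 it was −20.0 ± 10 (limma adjusted p = 0.295), and at Pcdhga12 −13.8 ± 7.53 (limma adjusted p = 0.338). The difference at Pcdhgc3 was the smallest, −0.793 ± 1.34 (limma adjusted p = 0.800), and Pcdhgc4 was the one tested member with a positive value, 6.84 ± 9.66 (limma adjusted p = 0.751).

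The estimates at the other 7 tested members were Pcdhgb4 −16.7, Pcdhgb5 −10.6, Pcdhga7 −10.3, Pcdhga11 −10.2, Pcdhgb7 −3.80, Pcdhac2 −1.50 and Pcdhga6 −1.16 percentile points, with limma adjusted p from 0.498 to 0.974. In all, 11 of the 12 estimates were below 0, with a median of −10.2, beside 52.9% below 0 and a median of −0.185 over the 13259 tested promoters of other protein-coding genes. The 2 medians come from different parts of the rank scale. Among genes open in all 6 lists, the median percentile was 45.6 for members and 87.5 for other genes. Differences near the top are compressed, with an SE of 1.34 at Pcdhgc3 and 7.01 at Pcdhgb6. No comparison at matched rank was made. At 2 of the 12 members (16.7%) the 3 UNx values lay below the 3 Sham values, beside 11.7% of all tested regions, and at none did they lie above, beside 12.0%. Regions entered the fit through presence in 3 lists, and the 11 gamma and alpha C-type members with a lower estimate share libraries and a locus, so the count is a description. Without UNx 2 the median was −4.87, and with all deposited peaks it was −2.21 over 17 members.

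**Figure D4:**
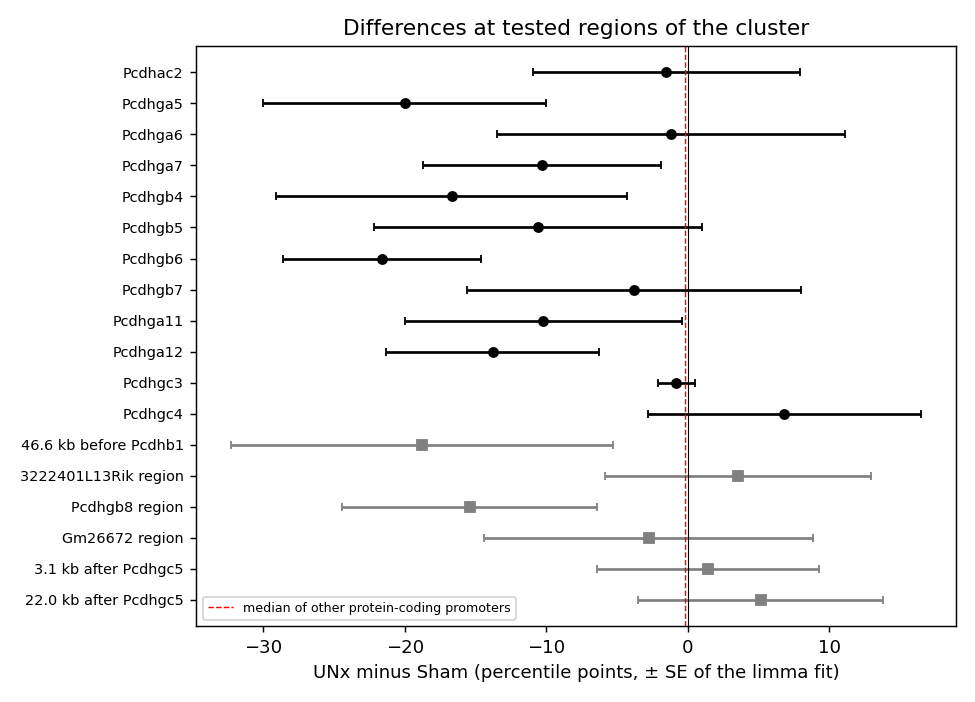
Difference in percentile rank, UNx minus Sham (x axis, percentile points, with the SE of the limma fit), at the 12 tested member promoters (black circles) and 6 tested regions elsewhere in the span (grey squares). The dashed line is the median of the other tested protein-coding promoters, −0.185. Those promoters mostly rank higher than the members, and the line is not matched for rank. Most member estimates lie to its left, and none passed the adjusted threshold.

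The sign of the estimate was kept at 9 of the 12 tested members under every alternative that tested them; the exceptions were Pcdhac2, Pcdhga6 and Pcdhgb7, whose estimates changed sign under 5, 9 and 4 alternatives. Markers of other cells were looked at beside these values. Of 14 markers of endothelial, glomerular, immune and stromal cells, Pdgfra and Col1a1 were open in all 6 lists, and Ptprc, Csf1r, Cd68, Pdgfrb and Acta2 were at 0 in all. The summed percentile of this list ranged from 206 to 256 in Sham and from 156 to 247 in UNx libraries, with a median difference of −5.78 over 8 tested genes. Of 9 markers of other segments, 4 were open in all 6 lists and 5 in none, and their summed percentile ranged from 268 to 291 in Sham and from 237 to 263 in UNx libraries. Of these 4, the thick ascending limb genes Slc12a1 and Umod went from 56.9 ± 4.0 (SD, n = 3) to 30.4 ± 9.55 (limma adjusted p = 0.132) and from 65.4 ± 0.623 to 69.4 ± 4.65 (limma adjusted p = 0.750). The collecting duct gene Scnn1g went from 93.0 ± 2.47 to 86.8 ± 1.89, and Calb1 from 65.2 ± 9.27 to 66.0 ± 4.25. The part of these markers in the member values was not tested. In bulk tubules, fewer open cells and less opening in each cell cannot be told apart.

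Accessible regions inside the span but away from member promoters numbered 7, of which 6 were tested and none passed the threshold. The stretch with the skipped peak number lies inside the span, so this count too may miss a region. A region between the alpha constant exons and the beta cluster (chr18:37218084-37218545), 46570 bp before Pcdhb1, ranked at 47.5, 26.6 and 43.1 in Sham. In UNx 1 and UNx 3 it ranked at 4.35 and 56.3, and it was absent from UNx 2. The difference was −18.8 ± 13.5 percentile points (SE, limma adjusted p = 0.479), and UNx 3 was the highest of all 6 libraries. A region at the start of the noncoding RNA gene 3222401L13Rik (chr18:37655470-37656085), just before Pcdhga1, ranked at 35.5, 39.1 and 37.7 in Sham and 34.8, 37.6 and 50.5 in UNx. UNx 3 was again the highest, and the difference was 3.55 ± 9.41 (SE, limma adjusted p = 0.880).

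The gamma cluster held the other 5. At the start of Pcdhgb8 (chr18:37761526-37761970), a gamma B gene annotated as a polymorphic pseudogene and so outside the members, values were 47.2, 63.9 and 51.4 in Sham and 25.8, 43.3 and 47.0 in UNx. All UNx libraries were thus below all Sham libraries at Pcdhgb8, as at its neighbour Pcdhga12, with a difference of −15.4 ± 9.01 (SE, limma adjusted p = 0.371). A region in the intron after Pcdhgc5 (chr18:37822394-37823042), 3142 bp from its start, ranked at 47.3, 64.6 and 59.7 in Sham and 73.3, 53.8 and 48.8 in UNx. Its difference was 1.43 ± 7.83 (SE, limma adjusted p = 0.947), with overlapping groups. It was the nearest region outside the 1 kb window of that gene. The farthest region inside a window was a second one at Pcdhgc3, at 695 bp and present in Sham 1 only (1.19), while the summits of the 22 regions used for the members lay at −89 to 432 bp from a start.

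The last 3 were weaker. A region in the coding exon of Pcdhga12 (chr18:37767955-37768441), 2714 bp after that gene's start and 52 bp from the start of the gene Gm26672, stood at 26.3 ± 5.47 (SD, n = 3) in Sham and 23.6 ± 18.7 in UNx. One in the shared 3′ UTR of the gamma genes was present in 3 lists, and one in the gamma intron was present in UNx 3 only, at 31.4.

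Sequence features that the choice of members did not use were read from the reference genome in 300 bases around each GENCODE start, 250 before and 50 after. Clustered protocadherin promoters are known for a conserved element with the core CGCT. The string CGCT, on either strand, was in 55 of the 57 windows (96.5%), beside 68.1% of other protein-coding promoters, 87.2% of those open in all 6 lists and 37.8% of those open in none. The windows without it were those of Pcdhb22 and Pcdhga12, and the summit of Pcdhga12 lies 307 bp after the annotated start, outside its window. In 201 bases centred on the summit, CGCT was found in 21 of the 22 open member regions (95.5%) and in 46.8% of all tested regions. A string of 4 letters recurs often, so a match is not a binding site.

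The string did not separate open from closed members, since 34 of the 35 members in no list held it. A short form of the CTCF core (CCNC, then NNG, then NNGGC, without a gap and on either strand) was in the windows of Pcdhac1 and Pcdhb18 only (3.51% of members, beside 11.4% of other protein-coding promoters), and in none of the 22 summit windows, beside 12.1% of tested regions. That says only that these letters are not in these windows, and the tested regions are again not promoters alone.

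Most member promoters were poor in G and C. The median GC content of the 57 windows was 39.7%, beside 55.7% for other protein-coding promoters and 60.7% for those open in all 6 lists. The gamma A and gamma B members open in all 6 lists had a median of 40.0%, and those that were not had 42.0%. Pcdhgc3 had 63.0% GC with 26 CpG and an observed to expected CpG ratio of 0.875, the highest GC of any member. Pcdhac2 had 52.3% GC. Pcdhac1, open in no list, had 60.7%, so a high GC content was not found at open members alone.

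**Figure D5:**
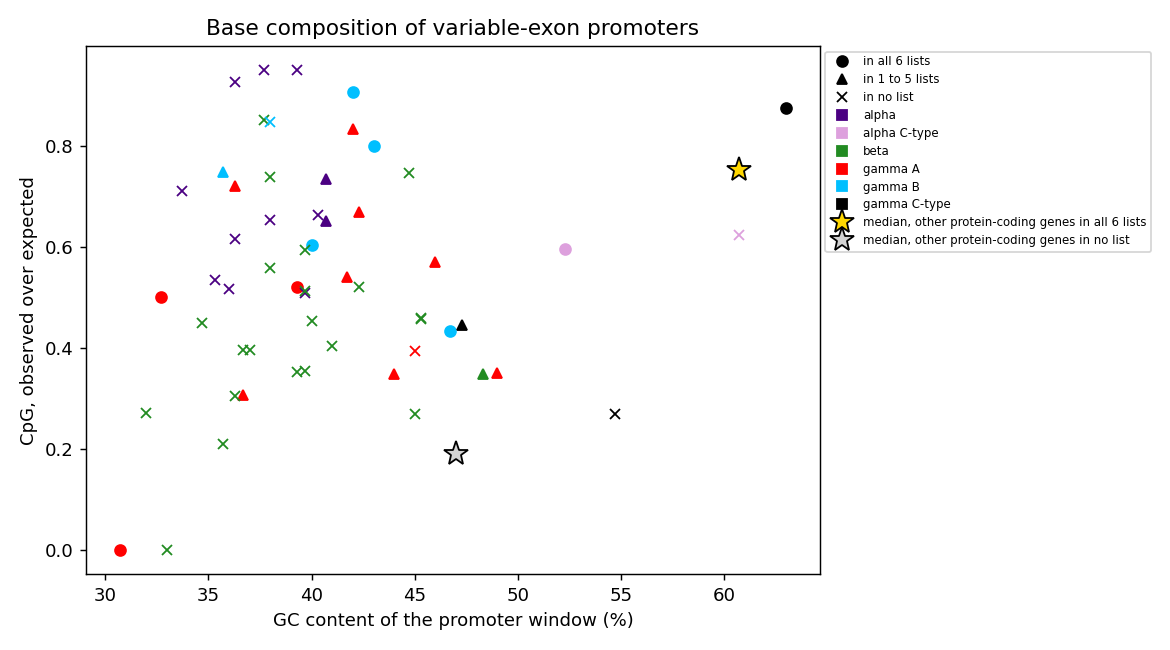
GC content (x axis, percent) against the observed to expected CpG ratio (y axis) in the 300-base promoter window of each member, coloured by subcluster, with circles for members in all 6 lists, triangles for 1 to 5 lists and crosses for none. Stars give medians of other protein-coding genes; Pcdhgc3 lies near the star of genes open in all 6 lists, and the gamma A and gamma B circles lie among the crosses.

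Near-identical copies bear on how short reads can be placed. The share of 50-base words within 500 bp of a start that recur elsewhere in the cluster was 2.10% to 25.0% in the alpha genes (median 15.7%) and 0% to 10.2% in the beta genes (median 0%). It was 0% to 2.31% in the gamma A genes and 0% to 19.6% in the gamma B genes (median 7.67%), and 0% in the C-type genes. Peaks at alpha and gamma B promoters, among them Pcdhgb4 with 19.6% and Pcdhgb5 with 13.4%, are uncertain in their placement to that extent. How the authors placed reads with several matches is not given in the sources used here.

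Regulators of the cluster had open promoters themselves. Of 24 genes for CTCF, cohesin and its loaders, DNA methylation and silencing, 23 were open in all 6 lists, and Tet1, a methylcytosine oxidase gene, was in none. None of the 23 passed the limma threshold. An unadjusted p under 0.05 was found for 7 of the 23, beside 1755 of the 13259 tested promoters of other protein-coding genes, a smaller share. Of the 23 estimates 16 (69.6%) were below 0, beside 52.9% of those other promoters. The median was −2.72, beside −0.185. Ctcf stood at 94.2 ± 1.46 (SD, n = 3) in Sham and 90.1 ± 2.31 in UNx, a difference of −4.08 ± 1.93 (SE, limma adjusted p = 0.265). The cohesin gene Rad21 stood at 80.4 ± 4.71 and 78.0 ± 11.2, Smchd1 at 97.8 ± 1.10 and 98.0 ± 1.56, and the DNA methyltransferase gene Dnmt3b at 77.9 ± 4.37 and 73.7 ± 12.5.

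Of 8 genes for partners of the shared intracellular domains, among them the focal adhesion kinase gene Ptk2 and the sheddase gene Adam10, 7 were open in all 6 lists, and none of the 8 passed the threshold or had an unadjusted p under 0.05. Neuronal markers were mostly weak: 3 of 12 (Snap25, Elavl4 and Map2) were open in all 6 lists, and Stmn2, Nefl and Dcx were in none. Map2 was strong, at 94.2 in Sham and 96.4 in UNx. Snap25 stood at 60.1 and 59.6, and Elavl4 at 58.4 and 59.5. None of the 8 tested passed the threshold. An unadjusted p under 0.05 was found for 1 of the 8, beside 1755 of the 13259 other tested promoters. It was Slc17a7, at 11.5 ± 10.6 (SD, n = 3) and 49.5 ± 13.5 (limma adjusted p = 0.0916).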

How the data were processed

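ATAC-seq peak lists of 6 libraries (3 Sham, 3 UNx) were used, 1 list per library. The submitters' processing notes name cutadapt 3.4, Bowtie, SAMtools, Picard, MACS2 2.2.7.1 and the build mm10. Settings, and what the word filtered in the lists' names refers to, are not given in the sources used here. For every summit the deposited lists hold the fold enrichment, which is a ratio to the background, and its −log10 p and −log10 q. They also hold a score for display, computed by the authors from the −log10 q, and the summit's offset. All of these came from the authors and served here to rank, filter or describe peaks inside 1 list. The lists hold no read counts, so no interval that needs depth is given.

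Each distinct interval with its strongest summit was 1 peak. The 77355 strongest of each list by −log10 q got a percentile rank, with ties broken by fold enrichment and then position. Intervals sharing 1 bp or more were joined into 99340 regions, and the 74774 in at least 3 lists were fitted with limma 3.58.1 in R 4.3.3 (two-sided, with trend and robust options, adjusted over all of them by Benjamini-Hochberg, threshold 0.05), of which 332 were higher and 272 lower after UNx. Starts and annotation were those of GENCODE M21 on GRCm38. Of 2 GENCODE genes with the symbol Pcdha11, the first is Pcdha10 in RefSeq and is called so. A member's region was the one with the highest mean percentile among those with a summit within 1 kb of a start.

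All members in at least 1 list were described, with each library's value for those in 3 or more lists. Named from 8 further gene lists (113 genes) were genes past the threshold and 7 preset genes, with examples chosen after their values were seen. Regions elsewhere in the span and neighbouring genes were also described, and some genes the rule names are not reported here. The members and lists were chosen with earlier results of these data known. Alternatives were other list lengths, rankings, peak and region definitions, filters, scales, variance models, promoter windows, the replicate number as a block, and each library left out. The promoter windows only chose the region of a gene and reused the main fit.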

Additional observations from a re-analysis of the deposited data

How the results depend on the processing

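No member and no region elsewhere in the span passed the threshold under any alternative run (0 in each leave-one-out fit). With the 20000 strongest peaks of each list, Pcdhgc3 alone could be tested and was lower, 1 member was open in all lists and 3 in at least 1 list, since fewer peaks were kept. The number of tested members with a lower estimate was 9 to 11 when single libraries were left out. The median difference over tested members was −10.2; it was −2.21 with all deposited peaks, −3.57 without the filter on presence in lists, −3.62 with a −log10 q of at least 5, −5.74 with ranks by fold enrichment, −3.07 with the 20000 strongest peaks and −4.87 without UNx 2, where the cause was not tested. Apart from normal scores, which are on another scale, the other alternatives gave −13.4 to −7.83. The labels give both groups the same replicate numbers, but deviations of same-numbered libraries correlated at 0.00825, −0.0997 and −0.0493, so the numbers were not taken to pair the libraries. With the replicate block 0 members were called and 11 estimates were lower, and the regions called fell from 604 to 56 over the whole table. Calls over the whole table ranged from 2 with the 20000 strongest peaks or no filter to 1555 with normal scores. Of the 12 alpha genes outside the C-type, 2 were in at least 1 list of ranked peaks and 7 in at least 1 list of all deposited peaks.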

Other observations

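Adhesion genes outside the cluster were described from lists of the same kind. Among 21 non-clustered protocadherins and related large cadherins, 11 were open in all 6 lists, 13 were tested and none passed the threshold. An unadjusted p under 0.05 was found for 2 of the 13, beside 1755 of the 13259 tested promoters of other protein-coding genes. Pcdh19 had the smallest p of these: it stood at 55.0, 60.5 and 55.3 in Sham and 80.8, 69.9 and 77.1 in UNx, a difference of 19.0 ± 5.74 (SE, limma adjusted p = 0.100), with every UNx library above every Sham library. It was chosen after its values were seen.

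Among 15 classical cadherins and catenins, 12 were tested and 1 passed the threshold, beside 0.808% of all tested regions. An unadjusted p under 0.05 was found for 5 of the 12, beside 1755 of the 13259 tested promoters of other protein-coding genes. Of the 12 estimates, 3 were below 0 and 9 above. Ctnnb1, which encodes beta-catenin, fell from 93.3 ± 0.848 (SD, n = 3) in Sham to 68.8 ± 10.3 in UNx. Its values were 92.5, 93.2 and 94.1 in Sham and 64.2, 61.6 and 80.6 in UNx, a difference of −24.5 ± 4.39 (SE, limma adjusted p = 0.0280). Its limma adjusted p ranged from 0.00262 to 0.139 over the 19 alternatives, and the call was kept in 10 of them. Those 10 include the promoter windows of 500 bp and 2.5 kb, which reused the main fit and returned the same value. These windows are therefore no check of the call. The limma adjusted p was 0.0804 without Sham 1, 0.0762 without Sham 2, 0.102 without Sham 3 and 0.0771 without UNx 1.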
